A study of Mus musculus with 12 samples.

Results

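The transcripts described here are those of 38 cell cycle genes in mouse colon, 17 that act in DNA replication (S phase) and 21 that act in mitosis. Members were the probes whose only gene symbol was 1 of the listed genes. This gave 37 genes, with 39 of the 28853 probes on the array: 18 probes of 17 replication genes and 21 probes of 20 mitosis genes. Ccnb1, the gene of cyclin B1, had no such probe, and Pcna and Top2a had 2 probes each. Colon RNA was measured on Affymetrix MoGene 1.0 ST arrays, each array holding the RNA of 1 mouse, in 4 groups of 3 mice. The groups were TSP-1-/- mice given AOM/DSS, WT mice given AOM/DSS, TSP-1-/- mice given water and WT mice given water. All mice were C57BL/6, and the labels call the TSP-1-/- mice TSP-null. AOM (azoxymethane) is a carcinogen of the colon, and DSS (dextran sodium sulfate) injures the colonic lining when it is drunk. The treated mice were males that received 10 mg/kg AOM and 4 cycles of 1.5% DSS, and they were killed 15 weeks after AOM. The methods give an age of 7 weeks at the first cycle. Labels and methods differ on whether AOM came with the first DSS cycle or before it. The labels do not give the age of the water mice, and they attach the treatment text of another DSS study to them. Whether a treated sample was tumor, flat mucosa or both is not in the labels, and the methods speak of normal and diseased tissue.

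A dividing cell copies its DNA in S phase and separates the copies in mitosis, and each step has its own set of genes. The replication genes are switched on largely by E2F factors. The mitosis genes are switched on later, largely through CCAAT elements bound by NF-Y and through the cell cycle homology region, or CHR. In the normal colon, dividing cells sit in the lower part of the crypts, while the cells near the surface have left the cycle. Thrombospondin-1 (TSP-1) is a secreted protein of the matrix, best known as an inhibitor of blood vessel growth.

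The promoters of both sets were searched for the letters of these elements. RefSeq promoter windows (mouse build GRCm38.p6, 250 bases before to 50 after an annotated start) were found for 31 of the 38 genes, 15 of replication and 16 of mitosis. Mcm7 had 2 windows, counted as 1 gene. The search, on both strands, was for E2F letters (TTTCGCGC, TTTGGCGC or TTTCCCGC), for CCAAT and for CHR letters (TTTGAA or TTCGAA). In 1 window of Mcm7 an E2F match and a CCAAT match share 1 base. E2F letters were in the windows of 7 of 15 replication genes and 1 of 16 mitosis genes, against 1.84% of all 32851 windows. CHR letters were in 2 of 15 replication and 13 of 16 mitosis genes, against 19.2% of all windows. CCAAT was in 9 of 15 replication and 15 of 16 mitosis genes, against 37.4% of all windows. CCAAT and CHR letters stood together in 2 of 15 replication genes (Mcm2 and Mcm7) and 13 of 16 mitosis genes, against 7.52% of all windows. A match describes the letters only and is not evidence of a bound site. Birc5, E2f1, Ccne1, Chek1 and Tyms had none of these letters in their windows, from which nothing follows about the factors.

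**Figure D1:**
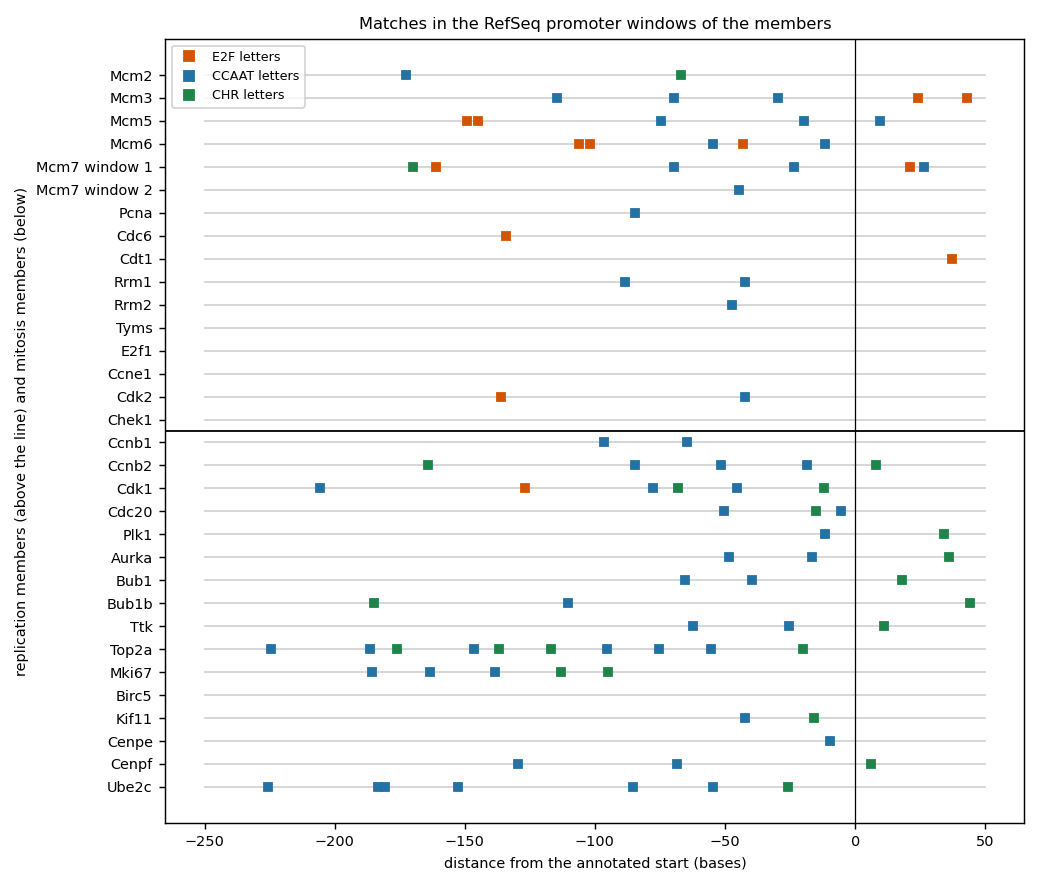
Matches to E2F (orange), CCAAT (blue) and CHR (green) letters on either strand in the RefSeq promoter windows of 15 replication genes (above the line) and 16 mitosis genes (below). The horizontal axis is the distance from the annotated start in bases. E2F matches lie almost all above the line, and CHR matches almost all below it.

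To show these letters in place, the bases just before the start are printed for 3 replication and 3 mitosis genes, chosen after the match positions were seen. Capitals mark the matches. The 2 E2F matches of Mcm5 (chr8:75109334-75109508, plus strand) overlap on opposite strands, as do the first 2 of Mcm6 (chr1:128359706-128359880, minus strand), which has a further one closer to the start. Cdc6 (chr11:98907976-98908150, plus strand) has 1 E2F match and no CCAAT. Cdk1 (chr10:69352913-69353087, minus strand) is the mitosis gene with E2F letters, followed by CCAAT and CHR letters. Cdc20 (chr4:118437344-118437518, minus strand) and Ube2c (chr2:164769754-164769928, plus strand) have CCAAT and CHR letters only.
Mcm5: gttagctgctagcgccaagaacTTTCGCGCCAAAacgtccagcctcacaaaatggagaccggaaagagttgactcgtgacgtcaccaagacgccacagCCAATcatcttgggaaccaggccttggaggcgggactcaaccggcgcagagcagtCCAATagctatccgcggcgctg
Mcm6: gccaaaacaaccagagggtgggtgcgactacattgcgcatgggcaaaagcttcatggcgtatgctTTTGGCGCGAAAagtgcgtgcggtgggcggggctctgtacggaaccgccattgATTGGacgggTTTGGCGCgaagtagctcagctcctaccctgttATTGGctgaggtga
Cdc6: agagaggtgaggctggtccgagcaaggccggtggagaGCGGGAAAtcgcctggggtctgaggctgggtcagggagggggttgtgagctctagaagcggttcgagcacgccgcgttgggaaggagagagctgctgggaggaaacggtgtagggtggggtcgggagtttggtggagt
Cdk1: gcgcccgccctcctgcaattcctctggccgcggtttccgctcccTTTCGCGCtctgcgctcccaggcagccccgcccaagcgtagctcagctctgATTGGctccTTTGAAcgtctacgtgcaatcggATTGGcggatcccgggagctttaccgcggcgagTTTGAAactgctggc
Cdc20: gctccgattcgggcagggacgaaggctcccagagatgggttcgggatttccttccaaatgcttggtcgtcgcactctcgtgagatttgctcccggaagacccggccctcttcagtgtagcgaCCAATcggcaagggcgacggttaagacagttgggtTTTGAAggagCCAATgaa
Ube2c: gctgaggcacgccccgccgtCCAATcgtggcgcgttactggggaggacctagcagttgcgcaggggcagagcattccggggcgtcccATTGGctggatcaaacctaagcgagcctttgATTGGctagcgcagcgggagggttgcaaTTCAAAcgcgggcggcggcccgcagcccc

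All levels below are log2 signals relative to a baseline set per probe, so 0 is that baseline and a difference of 1 is 2-fold. The AOM/DSS arrays are on the baseline that the methods describe and the water arrays are on another, so levels were compared within each array set. Replicates are separate mice, and their number limits the precision of every value. Thbs1 (probe 10474700), the gene of TSP-1, stood at 0.81, 0.85 and 0.93 in TSP-1-/- AOM/DSS colons, against 0.27, -0.16 and -0.069 in WT AOM/DSS colons. It stood at -0.0015, -0.96 and -1.15 in TSP-1-/- water colons, against -1.36, -0.99 and -0.47 in WT water colons. The transcript was thus not lower in the libraries labelled TSP-1-/-, and groups are named here by their labels. The study states that the mice retain a mutated Thbs1 gene, that its expression differed in them, and that no protein is made. Whether the probe lies in the altered part of the gene is not given in the sources used here, so it does not check the genotypes. TSP-1-/- AOM/DSS replicate 3 had a wider spread over all probes (SD 0.753) than the other 11 arrays (0.293 to 0.453). Epithelial markers (12 genes) had medians of -0.012, -0.013 and -0.61 on TSP-1-/- AOM/DSS replicates 1, 2 and 3, and 9 pancreatic genes stood at a median of 6.36 on replicate 3.

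No cell cycle member was called different between the colons of AOM/DSS-treated TSP-1-/- and WT mice in the test across all probes. In limma, 0 of the 39 probes were called higher and 0 lower (Benjamini-Hochberg adjusted p under 0.05 over all probes and at least 2-fold), against 1.73% and 1.05% of all probes, 2.78% in either direction. A list of 39 probes would hold few calls at these shares, so the lack of calls does not set the members apart. Without the fold minimum 0 members passed, against 8.3% of all probes. An unadjusted p under 0.05 was reached by 4 members, all higher in TSP-1-/-, against 21.4% of all probes higher and 10.9% lower, 32.3% in either direction. These were Ccne1, Mcm3, Mcm4 and Mcm5, all replication genes. An ordinary linear model without moderation also called 0 members. The groups separated without overlap for 0 of 39 members, against 20.2% of all probes higher and 10.7% lower. The 95% interval of 34 of the 39 lay within 2-fold either way, against 79.5% of all probes. Each interval rests on 1 variance per probe from all 12 arrays, so the water arrays entered the AOM/DSS intervals. The members' median pooled SD was 0.263 on water and 0.324 after AOM/DSS. When the water arrays were left out, limma gave adjusted p of 0.214 (Ccne1), 0.207 (Mcm3), 0.216 (Mcm4) and 0.260 (Mcm5). The main fit had given 0.0821, 0.0963, 0.0928 and 0.126. Whether the intervals of that smaller fit lay within 2-fold was not tested. In tissue RNA, a change in the share of dividing cells and a change in transcript per dividing cell cannot be told apart.

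The replication members had a median log2 difference of 0.36 between TSP-1-/- and WT colons after AOM/DSS, and the mitosis members one of 0.11. Both moved with the scaling and with single mice: quantile normalizing the 12 arrays again gave 0.18 for replication and 0.064 for mitosis, and leaving out WT replicate 1 gave 0.57 and 0.30. The median over all probes also lay above 0, at 0.127. Relative to it, 12 of 18 replication probes and 10 of 21 mitosis probes were above. Counted from 0, 15 of 18 and 15 of 21 were above, 30 of 39 in all, against 62.8% of all probes. When each array was centred on its median, 12 of 18 replication and 14 of 21 mitosis probes stayed above 0. In other genes of the same kinds the order was reversed. The median was 0.18 over 42 other replication genes and 0.22 over 45 other mitosis genes. No test was made between the sets, because genes are not replicates of a condition.

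The medians per array showed which mice set these differences. The replication median was 0.43, 0.44 and 0.35 in TSP-1-/- AOM/DSS replicates 1, 2 and 3, against 0.47, -0.13 and -0.012 in WT AOM/DSS replicates 1, 2 and 3. The TSP-1-/- mice were thus close to each other, and the WT mice were split, with replicate 1 at the level of the TSP-1-/- mice. The mitosis median was 0.22, 0.39 and -0.055 in TSP-1-/- AOM/DSS, against 0.32, -0.050 and -0.16 in WT AOM/DSS. Here both genotypes spread over a similar range, with TSP-1-/- replicate 3 at the level of WT replicate 2. The replication median minus the mitosis median was 0.21, 0.041 and 0.41 in TSP-1-/- AOM/DSS, against 0.15, -0.079 and 0.15 in WT AOM/DSS, and the genotypes overlapped.

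**Figure D2:**
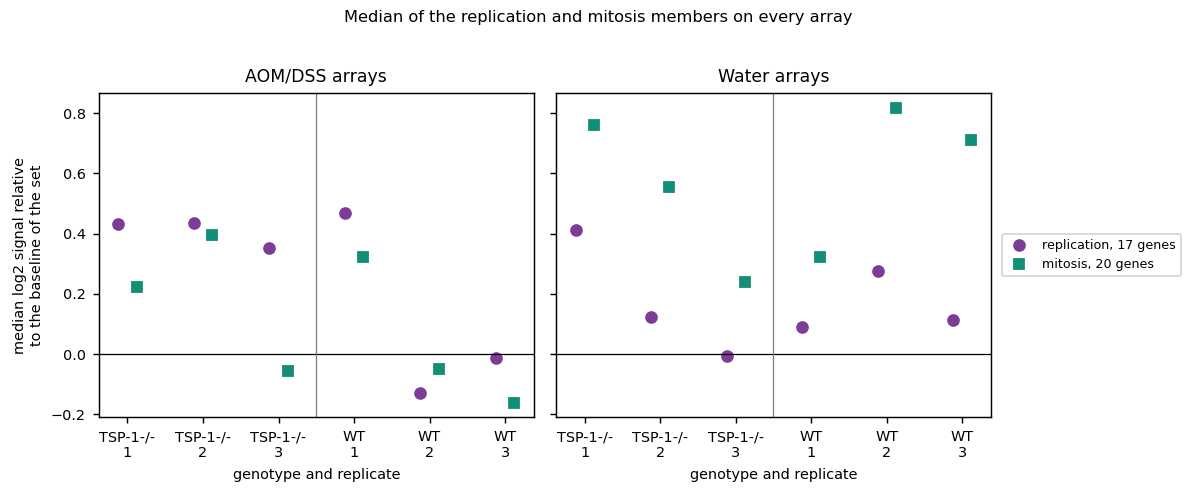
Median log2 signal relative to the baseline of the set for 17 replication genes (circles) and 20 mitosis genes (squares) on each of the 12 arrays, AOM/DSS on the left and water on the right, TSP-1-/- before WT in each panel. WT AOM/DSS replicate 1 lies at 0.47 for replication, beside TSP-1-/- AOM/DSS arrays at 0.35 to 0.44. Heights cannot be compared between the panels.

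The MCM proteins are subunits of the helicase that unwinds DNA at the fork, and Mcm3, Mcm4 and Mcm5 had the largest differences among them. Mcm3 (probe 10353420) stood at 0.55, 0.63 and 0.79 in TSP-1-/- AOM/DSS colons, against 0.60, -0.33 and -0.064 in WT AOM/DSS colons. Its difference was 0.59 (95% interval 0.11 to 1.07, limma adjusted p = 0.0963). Mcm3 was above WT replicates 2 and 3 in every TSP-1-/- mouse, but WT replicate 1 lay among the TSP-1-/- mice, so the groups overlapped. Mcm4 (probe 10437945) stood at 0.73, 0.57 and 0.85 in TSP-1-/- AOM/DSS colons, against 0.65, -0.015 and -0.012 in WT AOM/DSS colons (difference 0.51, interval 0.099 to 0.91, limma adjusted p = 0.0928). Mcm5 (probe 10572906) stood at 0.49, 0.61 and 0.34 in TSP-1-/- AOM/DSS colons, against 0.35, -0.41 and 0.18 in WT AOM/DSS colons (difference 0.44, interval 0.038 to 0.85, limma adjusted p = 0.126). In both, WT replicate 1 was again the only WT mouse within the TSP-1-/- range. When the 12 arrays were quantile normalized again, the differences of Mcm3 and Mcm4 were 0.37 and 0.25.

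The other MCM subunits had smaller differences. Mcm6 (probe 10357436) stood at 0.47, 0.44 and 0.35 in TSP-1-/- AOM/DSS colons, against 0.53, -0.14 and -0.16 in WT AOM/DSS colons, a difference of 0.34 (interval -0.11 to 0.80), with WT replicate 1 the highest of the 6 mice. Mcm7 (probe 10534974) stood at 0.27, 0.44 and 0.66 in TSP-1-/- AOM/DSS colons, against 0.34, -0.11 and 0.0075 in WT AOM/DSS colons, a difference of 0.38 (interval -0.0086 to 0.77). Mcm2 (probe 10546163) stood at 0.43, 0.41 and 0.35 in TSP-1-/- AOM/DSS colons, against 0.91, 0.12 and 0.013 in WT AOM/DSS colons, where WT replicate 1 was again the highest. The Mcm2 means therefore lay close together, at 0.40 ± 0.041 in TSP-1-/- and 0.35 ± 0.49 in WT (SD, n = 3 each).

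Cyclin E1, the partner of CDK2 at the entry to S phase, had the highest difference of the 39 probes. Ccne1 (probe 10562563) stood at 0.47, 0.46 and 1.60 in TSP-1-/- AOM/DSS colons, against 0.47, -0.13 and -0.14 in WT AOM/DSS colons. The difference was 0.78 or 1.71-fold (interval 0.18 to 1.37, limma adjusted p = 0.0821). It rested in part on TSP-1-/- replicate 3, the array with the wide spread and the pancreatic and low epithelial signal, and was 0.40 without that array (adjusted p = 0.232). It was 0.38 when the 12 arrays were quantile normalized again (adjusted p = 0.245). The part of these signals in the result was not tested. Cyclin E2 (Ccne2, probe 10503264) stood at 0.57, -0.026 and 0.16 in TSP-1-/- AOM/DSS colons, against 0.30, -0.12 and 0.043 in WT AOM/DSS colons, and Cdk2 itself differed by 0.033 (interval -0.40 to 0.47).

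Among the genes that license origins and supply nucleotides, 0 were called. Cdc6 (probe 10381072), which loads the MCM helicase onto origins, stood at 0.75, 0.51 and 0.21 in TSP-1-/- AOM/DSS colons, against 0.67, -0.05 and -0.23 in WT AOM/DSS colons. Cdt1 (probe 10576140), its partner in loading, stood at -0.52, -0.0042 and -0.18 in TSP-1-/- AOM/DSS colons, against 0.0042, -0.61 and 0.059 in WT AOM/DSS colons. The partners differed in arrangement: Cdc6 was above WT replicates 2 and 3 in every TSP-1-/- mouse, and Cdt1 was not. The ribonucleotide reductase subunits Rrm1 and Rrm2, which make deoxynucleotides, had differences of 0.36 (interval -0.27 to 0.98) and 0.44 (interval -0.20 to 1.08). Tyms, thymidylate synthase, differed by 0.036 (interval -0.42 to 0.49). Chek1, the checkpoint kinase that slows S phase when forks stall, stood at 0.68, 0.46 and 0.30 in TSP-1-/- AOM/DSS colons, against 0.64, -0.26 and -0.18 in WT AOM/DSS colons. E2f1, the activator of many of these genes, differed by 0.30 (interval -0.075 to 0.67).

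Pcna, the sliding clamp of the replication fork and a common stain for dividing cells, was among the replication genes whose difference was nearest to 0. Its probe 10461391 stood at 0.16, 0.043 and 0.10 in TSP-1-/- AOM/DSS colons, against 0.32, -0.094 and 0.19 in WT AOM/DSS colons. The difference was -0.038 (interval -0.35 to 0.27), and probe 10487930 gave the same difference to that precision. The TSP-1-/- mice all lay inside the WT range, and the 95% interval lay well within 2-fold either way. Mki67 (probe 10568714), which encodes the stain Ki-67, stood at 0.48, 0.61 and 0.30 in TSP-1-/- AOM/DSS colons, against 0.63, 0.087 and -0.043 in WT AOM/DSS colons. Its difference was 0.24 (interval -0.15 to 0.62).

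**Figure D3:**
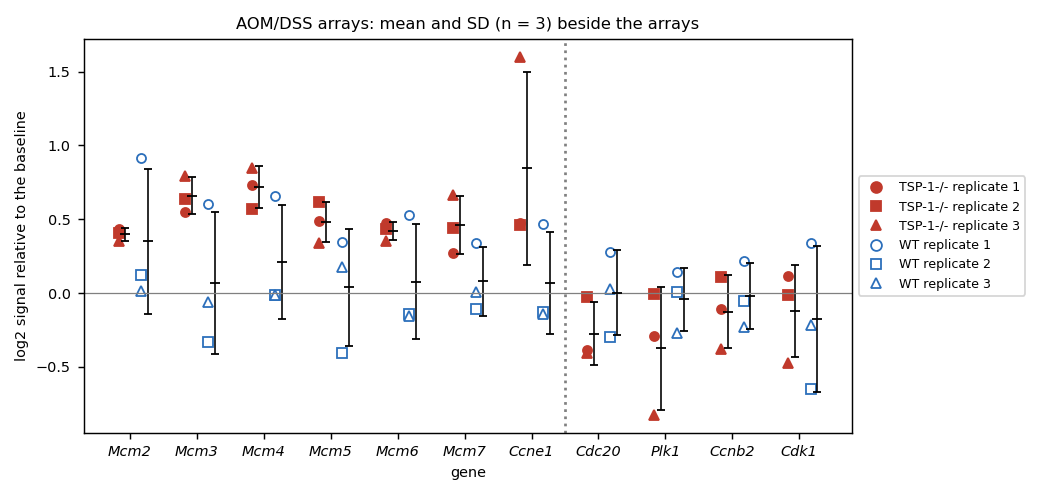
Log2 signal relative to the baseline on the AOM/DSS arrays for the 6 MCM genes and Ccne1 (left of the dotted line) and 4 mitosis genes (right), TSP-1-/- filled red and WT open blue, with the marker shape giving the replicate. Black bars beside the points are the mean and SD (n = 3). For Mcm3 the TSP-1-/- points lie at 0.55 to 0.79 with WT replicate 1 among them at 0.60.

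Of the mitosis members, none reached an unadjusted p under 0.05 after AOM/DSS, and their differences ran from -0.33 to 0.53. The lowest differences were those of Plk1 and Cdc20. Plk1 (probe 10557156), a kinase of mitotic entry and spindle assembly, stood at -0.29, -0.0058 and -0.82 in TSP-1-/- AOM/DSS colons, against 0.15, 0.0058 and -0.27 in WT AOM/DSS colons. Its difference was -0.33 (interval -0.80 to 0.13). Cdc20 (probe 10515744), which activates the anaphase-promoting complex, stood at -0.39, -0.029 and -0.41 in TSP-1-/- AOM/DSS colons, against 0.28, -0.30 and 0.029 in WT AOM/DSS colons, a difference of -0.28 (interval -0.74 to 0.18). In both genes the mice of the genotypes overlapped. Cdk1, the kinase that drives mitosis, differed by 0.052 (interval -0.56 to 0.66), and its cyclins Ccna2 and Ccnb2 by 0.12 (interval -0.35 to 0.58) and -0.10 (interval -0.60 to 0.39). Aurka, a kinase of the spindle poles, differed by -0.10 (interval -0.54 to 0.34).

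The highest difference of the mitosis members was that of Bub1 (probe 10487480), a kinase of the spindle checkpoint, which holds anaphase until chromosomes are attached. It stood at 0.76, 0.66 and 0.39 in TSP-1-/- AOM/DSS colons, against 0.74, -0.05 and -0.46 in WT AOM/DSS colons. Its difference was 0.53 (interval -0.028 to 1.09, limma adjusted p = 0.173), with WT replicate 1 again among the TSP-1-/- mice. Bub1b and Ttk, a pair of other checkpoint kinases, differed by 0.33 (interval -0.15 to 0.81) and 0.18 (interval -0.39 to 0.74). Tpx2 (probe 10477187), which activates Aurora A on the spindle, stood at 0.62, 0.66 and 0.33 in TSP-1-/- AOM/DSS colons, against 0.47, 0.013 and -0.013 in WT AOM/DSS colons.

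Top2a, the topoisomerase that untangles chromosomes, was read by probes that disagreed. Probe 10390707 stood at 0.44, 0.63 and 0.37 in TSP-1-/- AOM/DSS colons, against 0.51, -0.011 and -0.38 in WT AOM/DSS colons (difference 0.44, interval -0.031 to 0.91). Probe 10390746 stood at 0.13, 0.12 and 0.048 in TSP-1-/- AOM/DSS colons, against -0.048, 0.21 and -0.94 in WT AOM/DSS colons (difference 0.36, interval -0.33 to 1.04). The order of the WT mice differed between the probes. The motor and kinetochore genes Kif11, Kif20a, Cenpe and Cenpf differed by 0.27, 0.11, 0.36 and 0.078, and Aurkb, a kinase of chromosome attachment, by 0.24. Birc5, which encodes survivin, and Ube2c, the ubiquitin-conjugating enzyme that works with the anaphase-promoting complex, differed by -0.044 and -0.028. Foxm1, a factor that activates mitosis genes, differed by 0.10 with a wide interval (-0.62 to 0.83), since its levels ran from -0.72 to 0.45 in TSP-1-/- AOM/DSS colons and from -0.86 to 0.32 in WT AOM/DSS colons.

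**Figure D4:**
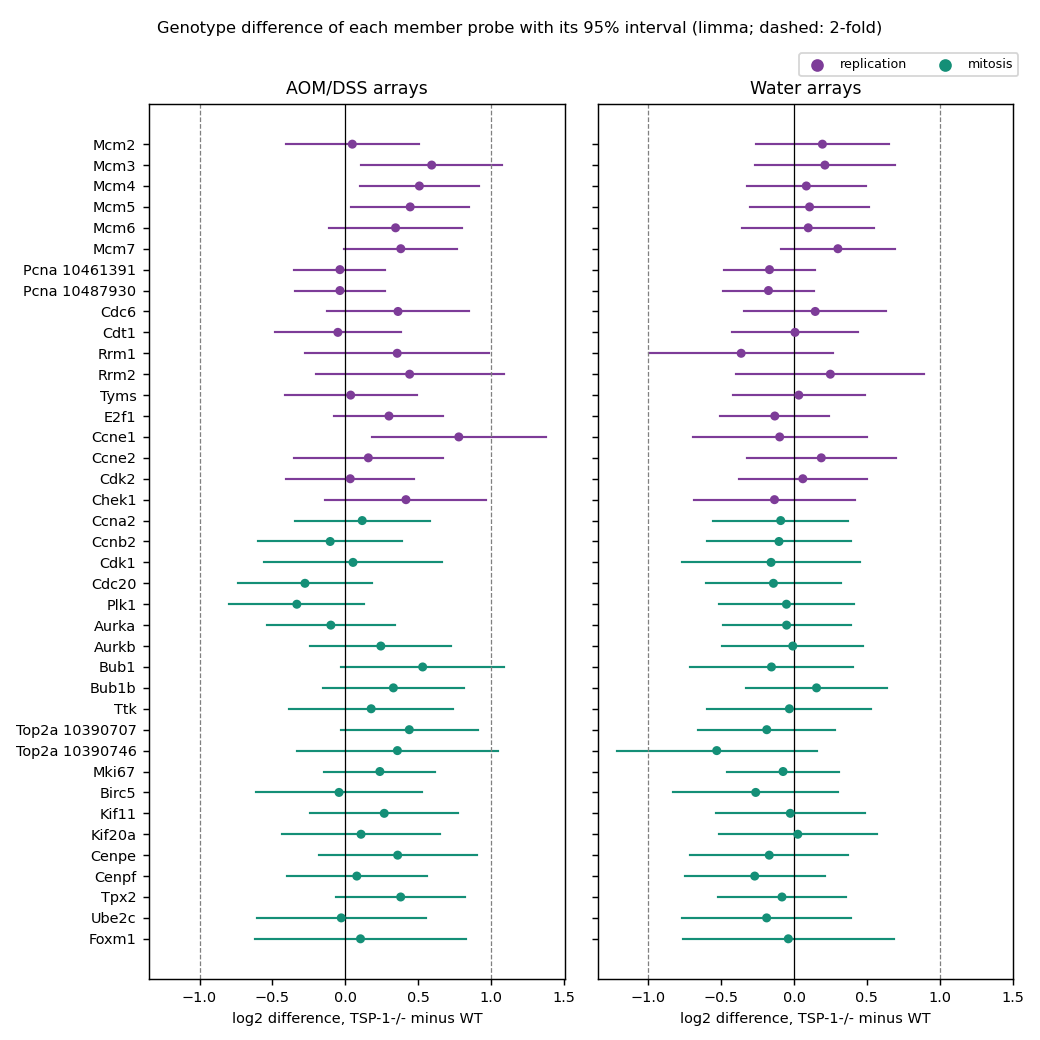
Log2 difference, TSP-1-/- minus WT, of each of the 39 member probes with its 95% interval from limma, for AOM/DSS (left) and water (right), replication in purple and mitosis in green. Dashed lines mark 2-fold. The intervals of Ccne1, Mcm3, Mcm4 and Mcm5 lie above 0 on the left, and every interval includes 0 on the right.

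WT AOM/DSS replicate 1 was the highest of the 3 WT mice for 35 of the 39 members, 17 of 18 replication and 18 of 21 mitosis probes, against 35% of all probes. Its level was closer to the average of the TSP-1-/- mice than to that of WT replicates 2 and 3 for 36 of 39 members (18 of 18 and 18 of 21), against 42.7% of all probes. In 12 of 18 replication and 8 of 21 mitosis probes all 3 TSP-1-/- mice were above WT replicates 2 and 3, against 29.3% of all probes. This split sets aside the WT mouse that was highest for most of these same members, which raises the count, so it is no test. The members were also read on the same mice, so these counts are not separate observations. Without WT replicate 1, and with no fold minimum, 5 members passed an adjusted p of 0.05, all higher in TSP-1-/-, against 6.97% of all probes higher and 4.59% lower. These were Mcm3 (0.86, limma adjusted p = 0.0181), Mcm4 (0.73, adjusted p = 0.0179), Bub1 (0.86, adjusted p = 0.0220), Top2a probe 10390707 (0.67, adjusted p = 0.0469) and Cdc6 (0.63, adjusted p = 0.0489). None of them reached 2-fold. Without WT replicate 2 or WT replicate 3, 0 members passed. Dropping this mouse and the fold minimum together was tried after the values were seen, and the labels give no reason to set the mouse aside. Adipocyte markers (7 genes) moved with the same mouse: their median was -1.74, -1.38 and -1.20 in TSP-1-/- AOM/DSS replicates 1, 2 and 3, against -1.03, 0.92 and 1.40 in WT AOM/DSS replicates 1, 2 and 3. Their part in the result was not tested.

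Within the TSP-1-/- mice, replicate 3 parted the sets. It was the lowest of the 3 TSP-1-/- AOM/DSS mice for 20 of 21 mitosis probes and for 6 of 18 replication probes, against 36.8% of all probes. It was the highest for 0 of 21 mitosis and 7 of 18 replication probes, against 40.5% of all probes. The 7 were Mcm3, Mcm4, Mcm7, Rrm1, Rrm2, Ccne1 and Cdk2. TSP-1-/- replicate 2 was the highest for 16 of 21 mitosis and 3 of 18 replication probes, against 30.3% of all probes. Marker lists also stood apart on replicate 3. The median of 12 markers of differentiated colonocytes was -1.45, against 0.076 and -0.046 on TSP-1-/- replicates 1 and 2, and T cell markers (7 genes) stood at 2.80, against 0.30 and 0.0090 there. B cell and plasma cell markers (8 genes) stood at 3.71, against 1.78 and 0.21. Their part in the mitosis levels was not tested. The 10 markers of crypt stem and progenitor cells, among which dividing cells are found, had a median difference of 0.30 between TSP-1-/- and WT, with 3 called higher: Lgr5 (1.62), Rnf43 (1.24) and Axin2 (1.23), against 1.73% of all probes called higher. Markers of other cell types also differed between TSP-1-/- and WT after AOM/DSS. The median difference was 2.72 for 10 neutrophil and monocyte markers, with 3 called higher, 0.94 for 7 macrophage markers, with 1 called higher, and 0.88 for 7 fibroblast markers, with 1 called higher. All of these markers had a difference above 0. On water the median differences of these lists were 0.94, 0.34 and 0.38, with 0 called. After AOM/DSS the median was 1.87 for 8 B cell and plasma cell markers, with 2 called higher. It was 0.57 for 6 germinal centre B cell markers, with 2 called higher. Of these 6 markers 4 were above 0, against 62.8% of all probes, and Rgs13 was the lowest at -0.86. The median difference was -2.04 for 7 adipocyte markers, with 3 called lower, and -0.36 for 12 epithelial markers, with 0 called. The 12 markers of differentiated colonocytes had a median difference of -0.51, with 0 above 0 and 1 called lower, against 1.05% of all probes. The part of these cell types in the members' values was not tested.

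No member was called different between the colons of TSP-1-/- and WT mice on water. In limma 0 of 39 probes were called in either direction, against 0% of all probes, and 0 had an unadjusted p under 0.05, against 0.576% of all probes higher and 0.423% lower, 0.999% in either direction. The groups separated without overlap for 0 members, against 2.29% of all probes higher and 2.88% lower. The ordinary linear model also called 0. The interval lay within 2-fold for 38 of the 39 members, against 93.9% of all probes, the exception being Top2a probe 10390746 (difference -0.53, interval -1.22 to 0.16). These p-values and intervals also rest on 1 variance per probe from all 12 arrays, so the AOM/DSS arrays entered them. Over all probes the median pooled SD was 0.241 after AOM/DSS and 0.169 on water. With the water arrays fitted alone, 0 members were called higher and 0 lower. The intervals of that smaller fit were not examined. The replication members had a median difference of 0.084, with 12 of 18 probes above 0. The mitosis members had one of -0.087, with 2 of 21 above 0, against 49.4% of all probes. The 2 mitosis probes above 0 were those of Bub1b (0.15) and Kif20a (0.026).

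The water medians overlapped between the genotypes in both sets. The replication median was 0.41, 0.12 and -0.0063 in TSP-1-/- water replicates 1, 2 and 3, against 0.091, 0.28 and 0.11 in WT water replicates 1, 2 and 3. The mitosis median was 0.76, 0.55 and 0.24 in TSP-1-/- water, against 0.32, 0.82 and 0.71 in WT water. One mouse of each genotype was thus low for mitosis genes. TSP-1-/- water replicate 3 was the lowest of its group for 17 of 21 mitosis probes (27 of all 39, against 34.8% of all probes), and WT water replicate 1 for 20 of 21 (29 of 39, against 32.6%). TSP-1-/- water replicate 1 was the highest of its group for 33 of 39 members, against 27% of all probes. Cdk1, for example, stood at 1.08, 0.72 and 0.37 in TSP-1-/- water colons, against 0.54, 1.28 and 0.83 in WT water colons. Mcm6 stood at 0.91, 0.29 and 0.47 in TSP-1-/- water colons, against 0.29, 0.68 and 0.41 in WT water colons. Marker lists of other cells stood apart on TSP-1-/- water replicate 1. The median of 10 neutrophil and monocyte markers was 0.10 there, against -2.74 to -1.75 on the other water arrays. The median of 9 pancreatic genes was 1.00, against -0.28 to 0.065. Their part in the members' values was not tested.

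**Figure D5:**
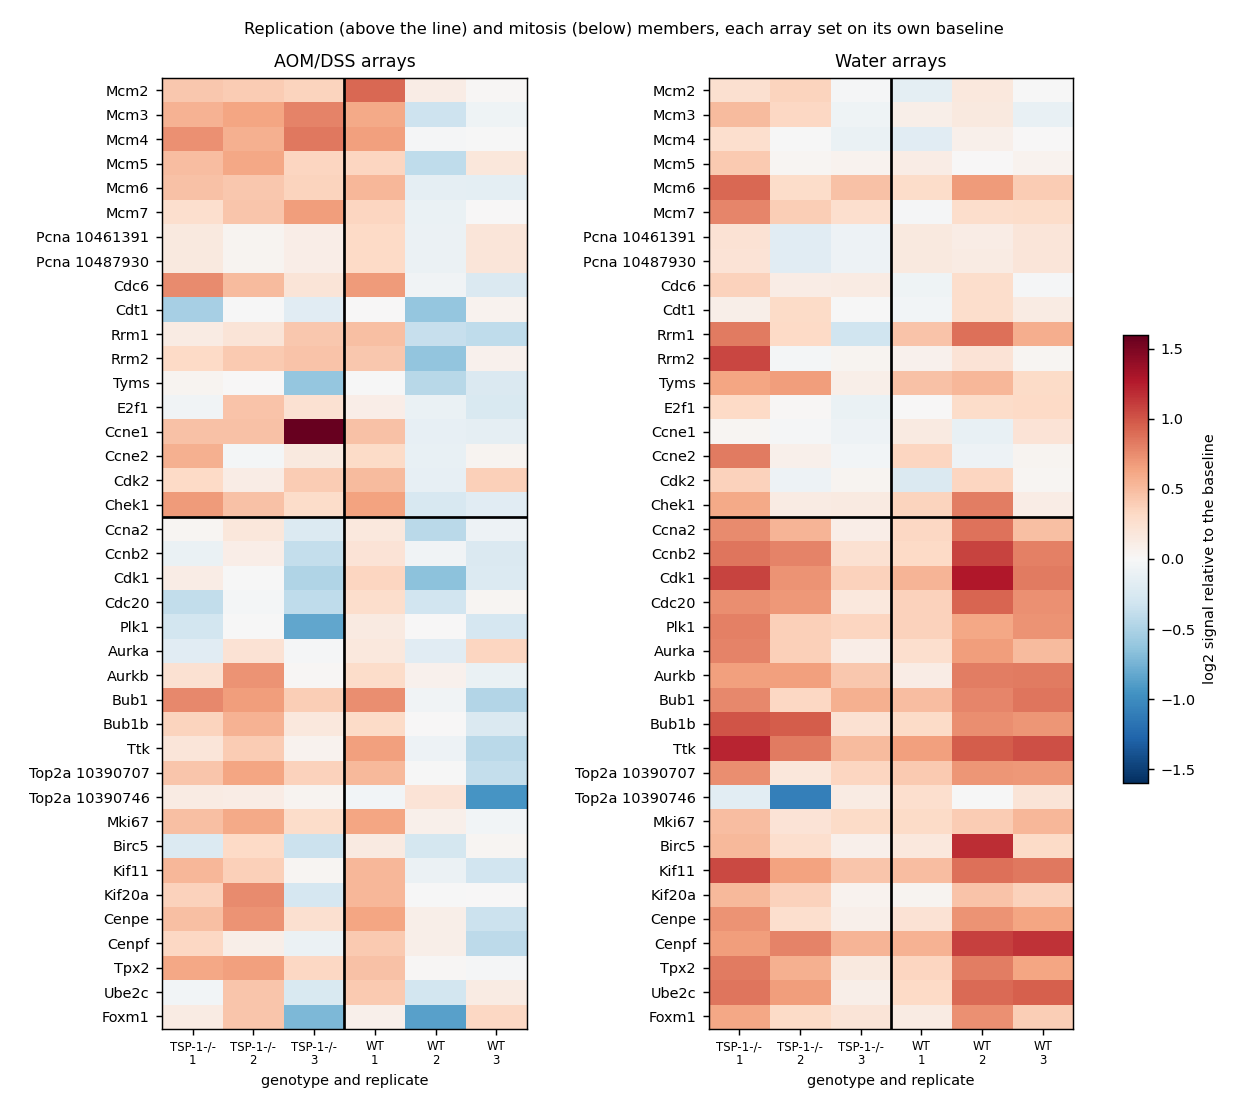
Log2 signal relative to the baseline (color scale) of the 39 member probes (down) on the 6 AOM/DSS arrays (left) and the 6 water arrays (right), TSP-1-/- before WT in each panel, replication above the horizontal line and mitosis below. The column of WT AOM/DSS replicate 1 resembles those of the TSP-1-/- mice beside it, with a replication median of 0.47. The panels are on separate baselines and are not to be compared with each other.

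The genotype difference after AOM/DSS and that on water were set against each other in the same limma fit. Of the 39 members 0 were called, against 0.00694% of all probes, and 1 had an unadjusted p under 0.05, against 9.96% of all probes higher and 5.42% lower, 15.4% in either direction. The interval lay within 2-fold for 23 of 39, against 65.2% of all probes, and 31 of 39 were above 0, against 62.6%. This was Ccne1, whose difference was larger by 0.88 after AOM/DSS (interval 0.033 to 1.72, adjusted p = 0.313). The ordinary linear model called 0. The treatment cannot be told apart from the array set here.

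Between AOM/DSS and water only the side of the baseline could be read. All 6 AOM/DSS arrays lay above the 12-array baseline for 1 member, Mcm2, and all 6 lay below it for 0 members, against 2.02% and 4.02% of all probes. The Mcm2 levels ran from 0.013 to 0.91 above that baseline, and Mcm2 was picked by this position, so no test was made. The count of members was close to the share of all probes.

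The members' pooled SD within groups had a median of 0.324 after AOM/DSS and 0.263 on water, against 0.241 and 0.169 over all probes. After AOM/DSS it was 0.299 for the replication and 0.330 for the mitosis probes.

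Other cell cycle genes had 0 calls after AOM/DSS, against 2.78% of all probes in either direction. Lists this short would hold few calls at that share. Over all probes 62.8% had a difference above 0, and the median was 0.127. Of 42 other replication genes 0 were called, 31 had a difference above 0 and the median was 0.18. The largest were Pola1, the catalytic subunit of the polymerase that primes replication (0.71, limma adjusted p = 0.0884), and Timeless, a protein that stabilises forks (0.53, adjusted p = 0.0707). Timeless stood at 0.81, 0.61 and 0.89 in TSP-1-/- AOM/DSS colons, against 0.68, 0.031 and 0.0031 in WT AOM/DSS colons, the arrangement of mice seen in Mcm4. Of 45 other mitosis genes 0 were called, 35 were above 0 and the median was 0.22, with the kinetochore gene Nuf2 the largest at 0.51. Of 16 genes of G1 cyclins, CDKs and E2F factors 0 were called, with a median of 0.10.

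The one G1 gene with an adjusted p under 0.05 was lower. Cdc25a (probe 10589420), the phosphatase that activates CDK2, stood at -0.39, -0.52 and -0.42 in TSP-1-/- AOM/DSS colons, against 0.20, -0.027 and 0.19 in WT AOM/DSS colons. Its difference was -0.56 (limma adjusted p = 0.0292), short of 2-fold. Of 12 cell cycle brakes 0 were called and the median was -0.18, with 5 above 0, against 62.8% of all probes. Cdkn2c (probe 10515090), an inhibitor of CDK4 and CDK6, stood at -0.64, -0.10 and -0.41 in TSP-1-/- AOM/DSS colons, against 0.25, 0.20 and 0.081 in WT AOM/DSS colons (difference -0.56, limma adjusted p = 0.0404, short of 2-fold). In both genes the groups did not overlap, as for 10.7% of all probes in this direction, and WT replicate 1 lay with the other WT mice. Each gene was named for the largest absolute difference in its list, which favors separated groups, so this is no test. The D-type cyclins Ccnd1 and Ccnd2, which act before cyclin E, differed by 0.44 and 0.49 (limma adjusted p = 0.148 and 0.129).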

How the data were processed

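Colon RNA of 12 mice was hybridised to 1 array each. The deposited values are log2 signals, summarised and quantile normalized by the authors with PLIER16, relative to a baseline per probe that the methods give as the median of the 12 samples; the build behind the probes is not given in the sources used here. That baseline was checked against group means that the study lists: of 377 genes read, 376 matched exactly 1 probe on the AOM/DSS arrays within 0.0001, and 0 on the water arrays. Values were used as deposited, with no filter, and 0 columns were left without a sample. Probe intensities before normalization were not used here.

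Probes were named through the platform table, in which 21789 probes have 1 gene symbol and 1621 several. Genotypes were compared with limma 3.58.1 in R 4.3.3 (lmFit, contrasts.fit, eBayes) on all 12 arrays with 1 mean per group. A call needed a Benjamini-Hochberg adjusted p under 0.05 over all probes and at least 2-fold. Of 28853 probes, 28815 have all 12 values. The fit was also run on simulated arrays with known changes and independent noise per probe. That run did not cover probes that move together on an array. Medians over a list use 1 value per gene, the mean of its probes, with no test. Promoter sequences are from RefSeq (GRCm38.p6), and Aurkb, Ccne2, Mcm4, Foxm1, Kif20a, Tpx2 and Ccna2 had no window in the table used. Scripts ran in Python 3.11.15.

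Every member with a probe was named, along with Thbs1 and at most 4 genes of each other list, those with the largest absolute difference between genotypes after AOM/DSS. Members with the lowest unadjusted p or the lowest difference are given array by array. The members, lists and tests were chosen with earlier results of these data known. Alternatives were other scalings, array weights, the variability filter of the methods (a coefficient of variation under 25% in at least 1 group, 28532 probes), the 2 groups of a comparison alone, no moderation, no fold minimum, 1 value per gene, a replicate block and each array left out in turn.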

Additional observations from a re-analysis of the deposited data

How the results depend on the processing

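Under the alternatives run for each comparison, 23 of them for TSP-1-/- against WT after AOM/DSS and fewer for the others, the number of members called higher or lower was 0, except for 1 alternative added after the data were seen. It left out WT AOM/DSS replicate 1 and dropped the fold minimum, and 5 members were then called higher after AOM/DSS. Leaving out each array in turn, at 2-fold, also gave 0. The replication median after AOM/DSS was 0.22 to 0.57 when 1 array was left out and 0.18 to 0.36 otherwise, with 0.18 from quantile normalizing the 12 arrays again and 0.22 from doing so within each array set. The highest was without WT AOM/DSS replicate 1 (0.57), and 0.22 was without WT replicate 2 or 3. The mitosis median after AOM/DSS was 0.035 to 0.30 and 0.036 to 0.23: 0.30 without WT replicate 1, 0.29 without TSP-1-/- replicate 3, 0.035 without TSP-1-/- replicate 2, and 0.062 and 0.063 without WT replicates 2 and 3. On water the replication median was -0.067 to 0.16 and 0.071 to 0.12, below 0 without TSP-1-/- water replicate 1. The mitosis median on water was -0.23 to 0.043 and -0.25 to 0.045, above 0 with array weights and without TSP-1-/- water replicate 3 or WT water replicate 2. The cause was not tested. Of 2418 values of single members under these alternatives, 174 changed sign.

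Groups share replicate numbers, but same-numbered arrays of the 2 genotypes did not deviate together after AOM/DSS (correlations 0.026, -0.043 and -0.025). On water they did in part (0.093, 0.28 and 0.40). The labels give replicate numbers but name no pairs, so the main fit did not take the numbers as pairs. On water, replicates 2 and 3 but not replicate 1 correlated best with their own number. With a replicate block 0 members were called. The block gave each replicate number the same effect on the AOM/DSS and water arrays, so pairing on water alone was not tested. Where an array was left out, a group of 2 mice remained. On the AOM/DSS arrays, 3 mice per group, 1 of them unlike the other two in WT, limit what these members can show.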
